A study of Mus musculus with 2 samples.

Results

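The ZBTB genes encode transcription factors that carry a BTB domain near the amino end and C2H2 zinc fingers near the carboxyl end. They were taken as all protein-coding genes whose mouse GENCODE symbol begins with Zbtb followed by a digit, and 41 of 21474 protein-coding genes met that rule. A single member, Zbtb8os, is named for lying beside Zbtb8a on the opposite strand. It encodes archease, a cofactor of tRNA ligation, and is no BTB zinc finger gene. A further symbol match, Zbtb11os1, is annotated as antisense RNA and was not a member. The members were not chosen on any measured level.

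PolyA-selected RNA was sequenced from mouse G1E-ER4 cells kept for 14 h in 10 nM 17beta-estradiol. G1E cells are an immortalized erythroid progenitor line that lacks its own functional Gata1, and the ER4 derivative is a clone that carries GATA1 fused to the ligand-binding domain of the estrogen receptor. Estradiol therefore lets GATA1 act, and the cells begin to mature toward red cells. Both libraries belong to this 1 group and no untreated cells were analysed here, so a level cannot be read as a response to estradiol. Per the labels they are biological replicates 1 and 2, but both cite a single biosample, and part of their spread may be technical. Values given in pairs belong to replicates 1 and 2 in that order unless the replicates are named.

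The BTB domain pairs these proteins with themselves or with each other and docks corepressors such as the NCOR1 and BCOR proteins, and the zinc fingers choose the DNA sequence. Most family members are known as repressors, and several set cell fate in blood. In the red cell lineage the best known is Zbtb7a, also called LRF, which erythroblasts need to mature in mice and which keeps the fetal globin genes silent in human adult red cells. Others act in lymphocytes, bind methylated DNA, guard telomeres or shape the brain and muscle.

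The libraries held 38395481 and 60097379 expected counts in replicates 1 and 2. All 10 erythroid marker genes were expressed, which here means at least 1 TPM (transcript abundance scaled to a fixed sum) in both libraries, and 7 reached 50 TPM in both. Gata1 is among them, and its reads may include those of the introduced GATA1 fusion. None of the 7 T cell, 5 B cell, 4 NK and innate T cell, 5 granulocyte and macrophage, 5 dendritic cell or 5 fibroblast and endothelium markers was expressed in that sense. The highest of these was Lck, a T cell kinase, at 0.15 TPM in replicate 1 and 1.40 in replicate 2. The libraries differed in erythroid transcripts. The adult beta-globin gene Hbb-bs reached 13158 TPM in replicate 1 and 49652 in replicate 2.

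Promoter sequence gives the setting of these genes in the genome. RefSeq promoters (GRCm38.p6, from 250 bases before to 50 after the start) were found for 36 of the 41 members, and for 33 the listed start lay within 500 bases of the 5′ end of the member's most abundant transcript. The 3 shown are those of the members with the highest level, Zbtb45 and Zbtb7a, and of Zbtb8b, which was not detected. Each run holds the 250 bases before the start on the gene's own strand, and capitals mark GATA motifs. The runs lie at chr7:13009853-13010102 on the minus strand for Zbtb45, chr10:81136021-81136270 on the plus strand for Zbtb7a and chr4:129440819-129441068 on the minus strand for Zbtb8b.
Zbtb45: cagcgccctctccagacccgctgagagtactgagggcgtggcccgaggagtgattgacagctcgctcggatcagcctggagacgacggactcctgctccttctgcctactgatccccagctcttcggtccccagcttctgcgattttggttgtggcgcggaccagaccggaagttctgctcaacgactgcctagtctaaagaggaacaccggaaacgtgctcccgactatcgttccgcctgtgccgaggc
Zbtb7a: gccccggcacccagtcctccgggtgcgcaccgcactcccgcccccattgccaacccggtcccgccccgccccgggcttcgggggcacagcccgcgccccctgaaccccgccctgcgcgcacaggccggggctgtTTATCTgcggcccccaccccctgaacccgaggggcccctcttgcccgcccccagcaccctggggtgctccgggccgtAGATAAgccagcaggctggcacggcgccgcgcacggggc
Zbtb8b: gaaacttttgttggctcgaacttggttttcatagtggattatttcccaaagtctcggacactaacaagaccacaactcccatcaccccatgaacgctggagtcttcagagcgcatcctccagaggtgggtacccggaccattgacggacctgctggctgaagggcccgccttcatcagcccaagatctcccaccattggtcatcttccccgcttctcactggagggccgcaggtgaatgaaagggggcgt

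Both capital runs in Zbtb7a spell AGATAA, the first on the opposite strand. They lie at -116 to -111 and at -39 to -34, counted with the start as 0. Zbtb45 has no GATA motif in the run shown, but AGATAG on the opposite strand spans its start, from -1 to 4. Motifs were searched on both strands. For GATA factors the spellings were AGATAA or else AGATAG, together with TGATAA or else TGATAG. For KLF factors the spelling was CCNCNCCC. The GATA spellings differ from each other only in their outer letters, and a GATA and a KLF match can share an end base.

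A GATA motif was in 5 of the 33 member promoters (15.2%), those of Zbtb7a, Zbtb45, Zbtb43, Zbtb5 and Zbtb3, against 26.7% of 17491 RefSeq protein-coding promoters of the same length. Zbtb7a was the only one of the 33 with more than 1 GATA motif. The promoters of all genes were chosen differently from those of the members. They are each gene's first listed start, whether or not the gene was expressed. A member's is the start nearest its most abundant transcript. The shares compared in this paragraph are therefore not of like promoters. The KLF motif was in 27 of 33 (81.8%), against 55.8% of all promoters. Zbtb7a held 8 matches in its full window. Member promoters were rich in G and C, with a median of 68.3% against 56.3%. A ratio of observed to expected CpG of at least 0.6, the usual mark of a CpG island, was found in 29 of 33 (87.9%), against 48.3% of all. Among the 25 expressed members with a matched start 24 reached it (96.0%), against 5 of the 8 that were under 1 TPM in a library (62.5%). The same split was not made over all genes, so it cannot be read as particular to this family. These are counts of letters and say nothing of binding, and no test was made on them.

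Most ZBTB genes were expressed, and few strongly. Of the 41 members, 29 (70.7%) reached 1 TPM in both libraries, against 37.6% of all protein-coding genes. Only 2 (4.88%) reached 50 TPM in both, against 9.08% of all. Another 3 (7.32%) were not detected, meaning under 0.1 TPM in both, against 52.3% of all, and 9 lay between. In bulk RNA fewer cells with a transcript and less of it per cell cannot be told apart. The median member had 3.0 TPM in replicate 1 and 3.38 in replicate 2, while the median protein-coding gene stood at 0.03 and 0.02. Among expressed genes the order turned round: the median of mean TPM was 5.85 for the 29 members and 20.3 for all 8073 expressed protein-coding genes. The members differed in base composition as well as in level. Their top transcripts ran from 36.9% to 62.9% GC, and GC content and mean TPM had a Spearman rho of 0.42 over the 41 members and 0.35 over all protein-coding genes, all measured in the same libraries.

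Set beside like families, the 394 Zfp genes, most of them zinc finger genes without a BTB domain, were expressed in 33.5% of cases and high in 4.06%. The 36 Klhl genes, which join a BTB domain to Kelch repeats instead of zinc fingers, were expressed in 38.9% and high in 2.78%. Expressed Zfp genes had a median of 11.8 TPM and expressed Klhl genes 6.17 TPM. No test was made of these shares, since genes are not replicates.

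**Figure D1:**
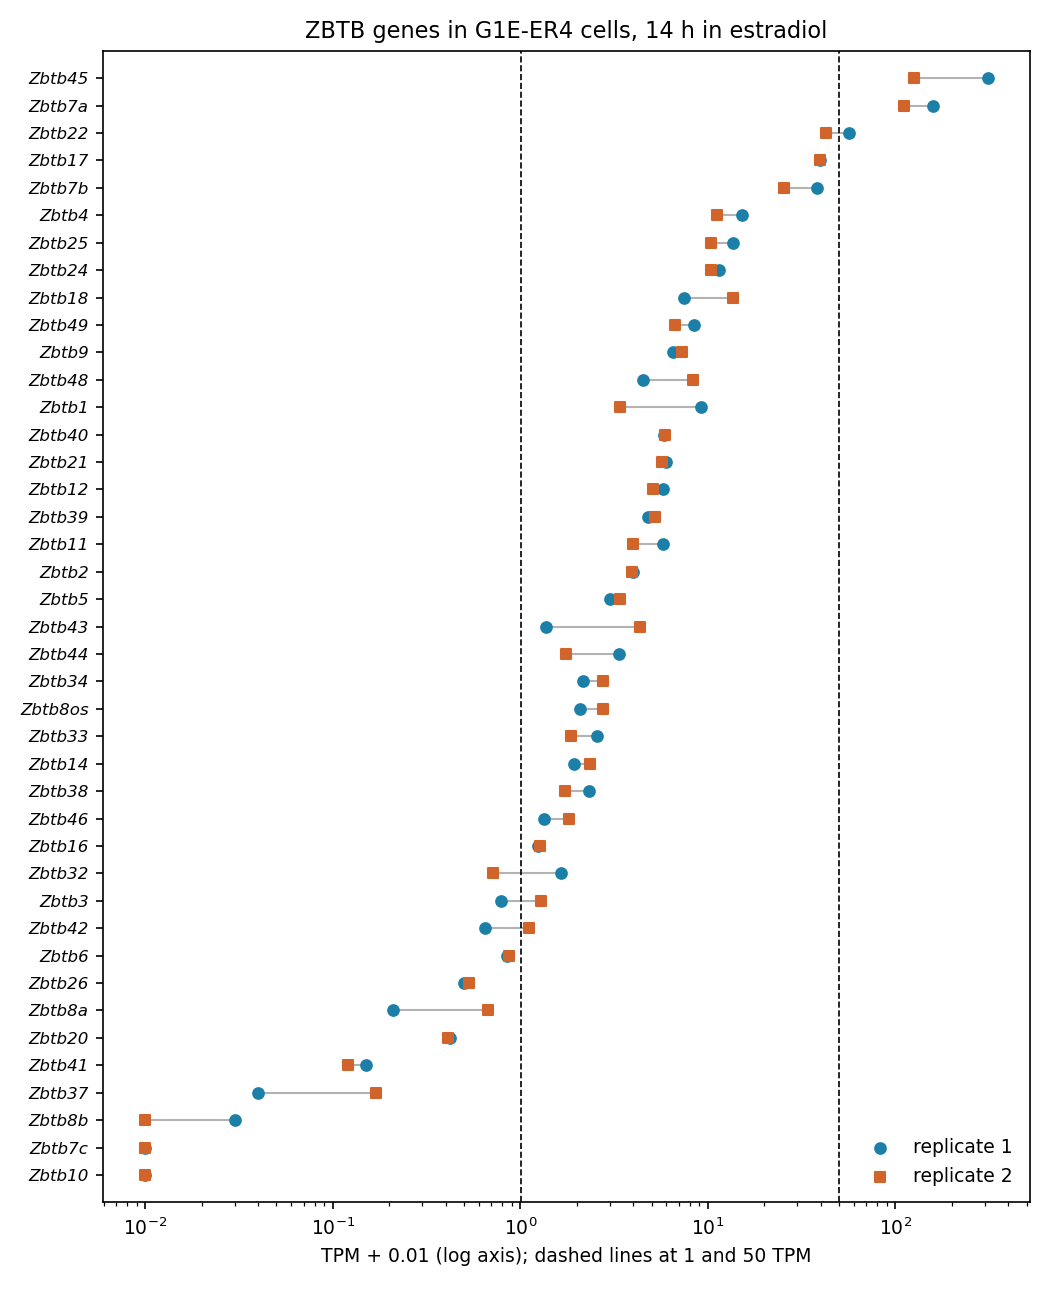
TPM + 0.01 of each of the 41 ZBTB genes (rows, highest mean at the top) on a log axis, with 1 point for each library and dashed lines at 1 and 50 TPM. Zbtb45 and Zbtb7a alone lie right of 50 TPM in both libraries, and Zbtb8b, Zbtb7c and Zbtb10 lie at the left edge.

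A pair of genes held a large part of the family's RNA. Zbtb45 and Zbtb7a together made up 63.5% of the summed member TPM of 736 in replicate 1, and 49.8% of 474 in replicate 2. The order of the members was alike in the libraries (Spearman rho 0.95 over 41 genes).

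Zbtb7a (chr10:81135220-81152995, plus strand), the erythroid factor described above, measured 157.75 TPM in replicate 1 and 111.26 in replicate 2, or 135 ± 32.9 TPM (SD, n = 2). It ranked 1030th of the protein-coding genes. It drew the most reads of any member, with 24080 and 30776 expected counts. Transcripts that carry all of its zinc finger matches held 99.6% and 99.8% of its TPM, chiefly Zbtb7a-201 at 81.13% and 83.01%.

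Zbtb45 (chr7:13003898-13010034, minus strand) had the highest TPM of the family. It is known from the rodent brain, where it takes part in the formation of glial cells. It reached 309.98 TPM in replicate 1 and 125.00 in replicate 2, or 217 ± 131 TPM (SD, n = 2), rank 642 among protein-coding genes. Replicate 1 was 2.48 times replicate 2 in TPM, so its level is less certain than that of Zbtb7a, at 1.42 times. Its reads were unshared: the counts were whole, 19131 and 14131, and its gene models share no exon bases with another gene. Its main transcript Zbtb45-201 is short (2139 bases), so it led by TPM though Zbtb7a had more counts.

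Below them came genes with general roles. Zbtb22, a gene of the extended MHC region whose role is less well known, lay just under the high class at 56.19 and 42.42 TPM (49.3 ± 9.74, SD, n = 2). It shares 149 exon bases with Tapbp on the same strand. Zbtb17 encodes MIZ-1, the partner through which MYC represses cell cycle inhibitor genes, and stood at 39.51 and 39.55 TPM. Its total was the same in both libraries, but the transcripts behind it were not, as described with the isoforms.

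All 3 factors known to bind methylated DNA were expressed. Zbtb4 had 15.23 TPM in replicate 1 and 11.16 in replicate 2. Zbtb33, which encodes Kaiso, stood at 2.54 and 1.86 TPM. Zbtb38 stood at 2.31 and 1.72 TPM. Zbtb4 was thus well above the others in both libraries, and the last 2 were close together.

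Of the 5 members known from lymphoid and dendritic cells, 4 were expressed although markers of those cells were not. Zbtb7b, which encodes ThPOK and commits T cells to the CD4 lineage, led them at 38.14 TPM in replicate 1 and 25.28 in replicate 2. Zbtb1, needed for lymphoid development in mice, stood at 9.20 and 3.40 TPM. Zbtb46, a mark of conventional dendritic cells, stood at 1.32 and 1.80 TPM. These levels thus ran from well expressed to near the 1 TPM threshold. Zbtb16, which encodes PLZF of innate-like T cells, stood at 1.23 and 1.26 TPM, just inside the expressed class. Zbtb32, a repressor in activated lymphocytes, stood at 1.63 and 0.70 TPM, just outside it. The summed T cell markers were 0.18 and 1.41 TPM, with Cd3g, Cd3d, Cd4 and Cd8a at 0 in both libraries, and the summed dendritic cell markers were 0.46 and 0.51 TPM, nearly all of it Batf3. Zbtb7b was therefore well expressed while these defining T cell markers were at 0.

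The genome maintenance genes stood at moderate levels, with an exception. Zbtb24, whose human gene is mutated in an immunodeficiency with loss of methylation at centromeric repeats, stood at 11.46 and 10.41 TPM. Zbtb40, tied to telomere upkeep in human cells, stood at 5.83 and 5.88 TPM. Zbtb48, which encodes the telomere-binding protein TZAP, measured 4.50 TPM in replicate 1 and 8.28 in replicate 2. Zbtb10, which binds variant telomere repeats in human cells, was not detected, with 1 count in replicate 1 and 0 in replicate 2. With a count of 0, up to 3 counts remain possible. That is 0.0781 CPM (reads scaled to the library's depth) in replicate 1 and 0.0499 in replicate 2. For Zbtb10 this limit applies only in replicate 2.

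Of the brain, muscle and liver factors other than Zbtb45, 1 of 3 was expressed. Zbtb18, a repressor in the developing cortex and in muscle, reached 7.45 TPM in replicate 1 and 13.60 in replicate 2. Zbtb42, its muscle relative, stood at 0.64 and 1.10 TPM. Zbtb20, which represses alpha-fetoprotein in the liver and patterns the hippocampus, stood at 0.41 and 0.40 TPM. The replicates differed for Zbtb18 and nearly coincided for Zbtb20.

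The remaining members were mostly low. Zbtb25, a repressor studied in T cells, reached 13.55 and 10.43 TPM and was the highest of them after Zbtb22. Its start lies beside that of Zbtb1 on chromosome 12, the genes running away from each other with a gap of 663 bases between the gene models. Zbtb12 stood at 5.74 and 5.07 TPM, and Zbtb2, which binds unmethylated CpG islands in mouse embryonic stem cells, at 3.97 and 3.92 TPM. Zbtb34 stood at 2.14 and 2.74 TPM, Zbtb43 at 1.36 and 4.31 TPM, Zbtb44 at 3.36 and 1.73 TPM, and Zbtb8os at 2.07 and 2.75 TPM. The other expressed members, Zbtb5, Zbtb9, Zbtb11, Zbtb14, Zbtb21, Zbtb39 and Zbtb49, lay between 1.92 TPM, the value of Zbtb14 in replicate 1, and 8.38 TPM, that of Zbtb49 in replicate 1.

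Just outside the expressed class with Zbtb32 was Zbtb3, at 0.78 and 1.27 TPM. Zbtb6 stood at 0.84 and 0.86 TPM and Zbtb26 at 0.49 and 0.52 TPM. These neighbours share 449 exon bases on the same strand, and their counts are fractional because reads were divided between them, with a posterior SD of 11.69 counts in replicate 1 and 12.44 in replicate 2 for each. Zbtb8a stood at 0.20 and 0.66 TPM, Zbtb41 at 0.14 and 0.11 TPM, and Zbtb37 at 0.03 and 0.16 TPM. The members not detected were Zbtb8b with 2 and 0 counts, Zbtb7c with 0 and 1 counts, and Zbtb10.

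The BTB zinc finger genes that carry other symbols were a mixed set. Of 8, 4 were expressed. Patz1, which encodes a factor that partners with other BTB proteins, was highest at 115.18 TPM in replicate 1 and 75.30 in replicate 2. Hic2, which represses Bcl11a in human erythroid cells, followed at 30.60 and 26.52 TPM. Bcl6b was at 0 in both libraries, and its relative Bcl6, the germinal centre repressor, drew 1 and 0 counts.

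Of the 17 corepressor genes 6 were high (35.3%), against 9.08% of all protein-coding genes. Gps2, a subunit of the NCOR1 complex, was highest at 217.05 TPM in replicate 1 and 256.26 in replicate 2. Ncor1 followed at 130.71 and 87.90 TPM. Among expressed genes the median of mean TPM was 31 for the corepressor genes, 5.85 for the members and 20.3 for all protein-coding genes.

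Related members were compared within each library as the log2 ratio of TPM + 0.1, which sets genes side by side per length. A pair counted as different beyond the spread if its ratio had the same sign in each library and a mean over 2 times their range. No p-value was computed for these ratios. By that rule 11 of 13 pairs differed. The rule takes no account of counting error. It was not applied to unrelated genes, so no background share stands beside this count.

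Within the Zbtb7 trio Zbtb7a was the main gene. Its ratio to Zbtb7b was 2.05 in replicate 1 and 2.13 in replicate 2, or 2.09 ± 0.06 (SD, n = 2). Zbtb7c gave no more than 1 count in a library. In replicate 1, where Zbtb7c drew 0, Zbtb7a had at least 8027-fold more counts against a floor of 3. In replicate 2 Zbtb7a had 30776 counts against 1 of Zbtb7c. Neither comparison is divided by length.

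In TPM the methylated DNA binders kept nearly fixed proportions. The ratio of Zbtb33 to Zbtb4 was -2.54 and -2.52, and that of Zbtb4 to Zbtb38 was 2.67 and 2.63. Zbtb33 over Zbtb38 gave 0.13 and 0.11, a difference so small that its mean turned to -0.07 as CPM, which does not divide by length. As CPM Zbtb33 was the higher in replicate 1 (7.34 against 6.15) and Zbtb38 in replicate 2 (7.24 against 5.47). The order of Zbtb33 and Zbtb38 thus depends on the unit, and as CPM on the library. On scaled counts the log2 ratio of replicate 2 to replicate 1 was -0.34 for Zbtb4, -0.50 for Zbtb33 and 0.16 for Zbtb38. Zbtb38 thus kept its proportion to the others in TPM but not on counts.

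Other close relatives were far apart. Zbtb18 over Zbtb42 was 3.35 and 3.51, Zbtb34 over Zbtb37 was 4.11 and 3.45, and Zbtb22 over Zbtb12 was 3.27 and 3.04. For Zbtb34 over Zbtb37 the mean fell from 3.78 to 2.83 with protein-coding transcripts only, and Zbtb37 drew only 19 and 55 counts. Zbtb45 over Zbtb20 was 9.25 in replicate 1 and 7.97 in replicate 2, the most uneven of the pairs in which both genes drew more than 3 counts. Zbtb2 over Zbtb25 was -1.75 and -1.39, and lay within the spread when not divided by length, at -0.59. Zbtb6 over Zbtb26 was 0.67 and 0.63, but rests on the shared reads described above.

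The other 2 pairs did not pass the rule. Zbtb16 over Zbtb32 was -0.38 in replicate 1 and 0.77 in replicate 2, so the order of PLZF and its relative per length turned between libraries. As CPM, not divided by length, Zbtb16 was the higher in both, with a mean log2 ratio of 2.33. Zbtb8a over Zbtb8b was 1.32 and 2.93, both above 0, with 13 and 78 counts for Zbtb8a against 2 and 0 for Zbtb8b.

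**Figure D2:**
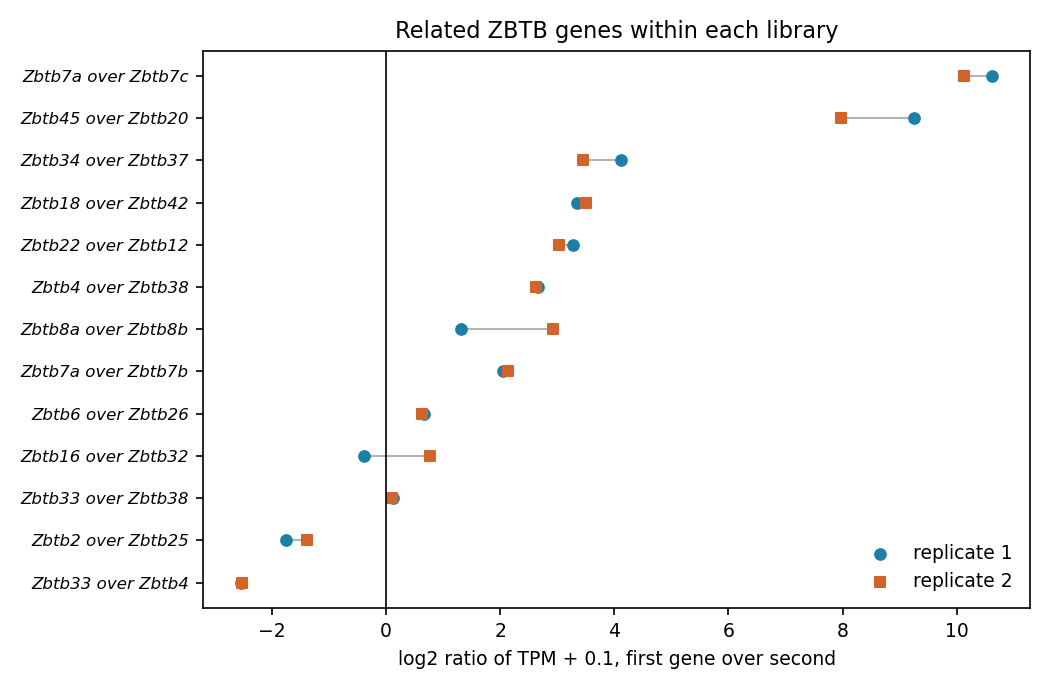
Log2 ratio of TPM + 0.1 for 13 pairs of related ZBTB genes, the gene named before "over" on top, with 1 point for each library and a line at 0. Zbtb16 over Zbtb32 is the only pair whose points lie on opposite sides of 0.

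The transcript tables show which RNAs lie behind these levels. The members had 177 transcripts in the files. For 27 of the 29 expressed members the most abundant transcript by mean isoform percent was annotated as protein-coding. For 23 the same transcript led in both libraries, and for 23, not necessarily the same genes, protein-coding transcripts held at least 90% of the TPM in both. Zinc fingers were counted in the translated coding sequences as matches to the spacing C-X2-4-C-X12-H-X3-5-H, where C is cysteine, H histidine and X any residue. This spacing can miss or add fingers, so the counts serve only to compare transcripts of 1 gene. Transcripts with every match of the gene's longest protein held at least 90% of TPM in both libraries for 16 members, and under 50% in at least 1 library for 8. Coding sequences came from GENCODE M21, where some transcript models differ in length from those quantified.

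Zbtb17 had the same gene level in both libraries but not the same coding RNA. Its TPM was 39.51 and 39.55, but protein-coding transcripts held 27.5% of it in replicate 1 and 64.2% in replicate 2, or 10.9 and 25.4 TPM. In replicate 1 the leading transcript was Zbtb17-205, a processed transcript without a coding sequence, at 30.34%, against 2.84% in replicate 2. In replicate 2 it was the coding Zbtb17-201, at 64.22%. The gene therefore looked constant only as a sum. It also shares 41 exon bases with Spen on the opposite strand.

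Most of the TPM of Zbtb18 was assigned to transcript models with only part of its coding sequence. Transcripts with all 4 matches held 5.7% of its TPM in replicate 1 and 9.4% in replicate 2. The leading transcript, Zbtb18-208, is 335 bases long, codes for 14 residues of the 531 in the longest protein, and held 48.42% and 28.94%. Short models take a high TPM from few reads, and the gene drew 244 and 1083 counts in all.

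Transcripts annotated for nonsense-mediated decay, the pathway that degrades RNA with a premature stop, led in 2 genes. For Zbtb49 they held 64.0% and 68.6% of TPM, and the transcript with all 7 matches held 12.3% and 11.8%. For Zbtb8os they held 62.7% and 95.4%. Zbtb48 had a lesser share of them, 30.3% and 23.2%. Its full-length coding transcript led with 64.40% and 54.40%.

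In several members the libraries disagreed on the leading transcript. These were Zbtb17, Zbtb21, Zbtb34, Zbtb38, Zbtb43 and Zbtb46. For Zbtb46 the share with all matches was 74.1% in replicate 1 and 41.8% in replicate 2, and for Zbtb21 it was 100% and 48.9%. The value of Zbtb21 in replicate 2 is uncertain. Its Zbtb21-201, at 51.06% there, was quantified as a model of 5410 bases. Its coding sequence was read from a GENCODE M21 model of 3072 bases, so matches may have been missed. Zbtb32, under the expressed class, went further. Its short Zbtb32-201 of 101 residues held 91.39% and 19.80%, and the full Zbtb32-202 of 465 residues held 8.61% and 80.20%. It had only 39 and 55 counts, so the spread of reads over its transcripts is imprecise. Its effective length was 787 bases in replicate 1 and 1437 in replicate 2. On counts scaled for depth its log2 ratio of replicate 2 to replicate 1 was -0.23 (adjusted p = 0.51, exact binomial test).

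**Figure D3:**
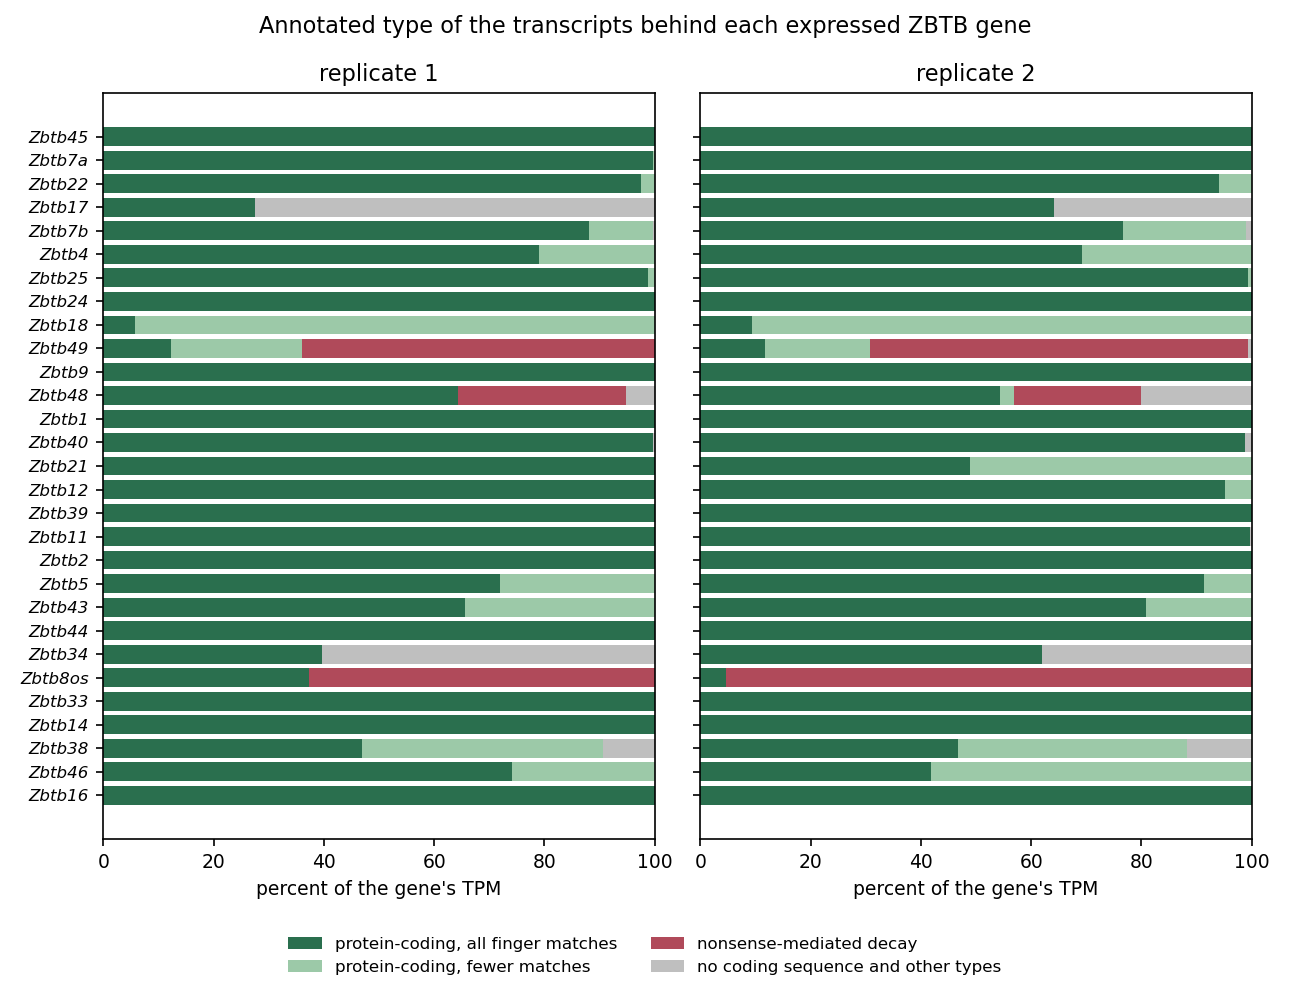
Percent of each expressed ZBTB gene's TPM by annotated transcript type, replicate 1 in the left panel and replicate 2 in the right, genes in the order of mean TPM. Dark green (coding, with all finger matches, or all coding for Zbtb8os, which has none) fills at least 90% of both bars in 16 genes and under 50% of a bar in 8: Zbtb17, Zbtb18, Zbtb21, Zbtb34, Zbtb38, Zbtb46, Zbtb49 and Zbtb8os. The place of Zbtb21 rests on a GENCODE M21 model shorter than the one quantified.

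The last comparison asked how far the libraries differ for these genes. Each gene was given an exact two-sided binomial test on rounded expected counts against TMM-scaled library sizes, and a call needed a 1.5-fold difference and an adjusted p (Benjamini-Hochberg) under 0.05. The test covers counting error only and compares these 2 libraries, not conditions. Among 38 members tested, 11 (28.9%) were called, against 41.4 percent of the 11230 genes tested in all. Higher in replicate 2 were 7 members (18.4%), against 24.3 percent of all genes, and higher in replicate 1 were 4 (10.5%), against 17.1 percent. The members' shares were below those of all genes in both directions, but they rest on 11 called genes and were not tested. Of all called genes 58.7% were higher in replicate 2, and 47.2% with upper quartile scaling. Their median log2 ratio of replicate 2 to replicate 1 was 0.09, beside 0.05 for all genes tested. Zbtb8b, Zbtb7c and Zbtb10 had fewer than 10 counts in sum and were not tested.

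Higher in replicate 2 were Zbtb18, Zbtb43, Zbtb48, Zbtb34, Zbtb8os, Zbtb3 and Zbtb8a. Zbtb18 had 1083 counts in replicate 2 and 244 in replicate 1, a log2 ratio of 1.43 (adjusted p = 2.3e-52, exact binomial test). Zbtb43 had 442 counts in replicate 2 and 117 in replicate 1, a log2 ratio of 1.19 (adjusted p = 4.4e-17, exact binomial test). Zbtb48 had 905 counts in replicate 2 and 263 in replicate 1, a log2 ratio of 1.06 (adjusted p = 3.4e-28, exact binomial test). All 3 were called under each scaling tried. Zbtb34 had a log2 ratio of 1.02 and Zbtb8os of 0.97 on scaled counts. Both calls were lost when the fold was taken from TPM, at 0.34 and 0.39. Their effective lengths, by which TPM divides, were longer in replicate 2: 4188 bases against 2872 in replicate 1 for Zbtb34, and 1092 against 795 for Zbtb8os. Zbtb8a had the largest ratio, 1.82, from 78 counts in replicate 2 and 13 in replicate 1 (adjusted p = 2.3e-06, exact binomial test), and Zbtb3 the smallest of the 7, 0.80. Zbtb8a shares 264 exon bases with Zbtb8os on the opposite strand. The counts of both were whole, so no read was divided between these neighbours. How reads in the shared bases were assigned is not known, since no source used here gives the use of strand in counting.

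Higher in replicate 1 were Zbtb1, Zbtb45, Zbtb44 and Zbtb7b. Zbtb1 had 2226 counts in replicate 2 and 3372 in replicate 1 although replicate 2 was deeper, a log2 ratio of -1.32 (adjusted p = 2.9e-252, exact binomial test). Zbtb45 had a log2 ratio of -1.16, or 2.23-fold more in replicate 1. With the trend of GC content removed its ratio shrank to -0.67, and it kept its call. Zbtb44 had a log2 ratio of -0.84. Zbtb7b, at -0.65, sat near the fold minimum and lost its call with scaling by total counts (-0.58) and with the trend of GC content removed (-0.35). Zbtb7a was not among these genes: its log2 ratio was -0.37, a 1.29-fold difference. It was thus the steadier of the 2 high members.

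Erythroid transcripts moved between the same libraries. Of 10 erythroid markers 6 were called higher in replicate 2, 1 was called higher in replicate 1, and 3 were not called. Gata1 measured 2656 TPM in replicate 2 and 1132 in replicate 1 (log2 ratio 1.34). Reads of the introduced GATA1 fusion may be part of this, and the sources were not told apart. Klf1, a target and partner of GATA1, measured 754 TPM in replicate 2 and 1422 in replicate 1 (log2 ratio -0.81). The part of such differences in the ZBTB values was not tested.

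**Figure D4:**
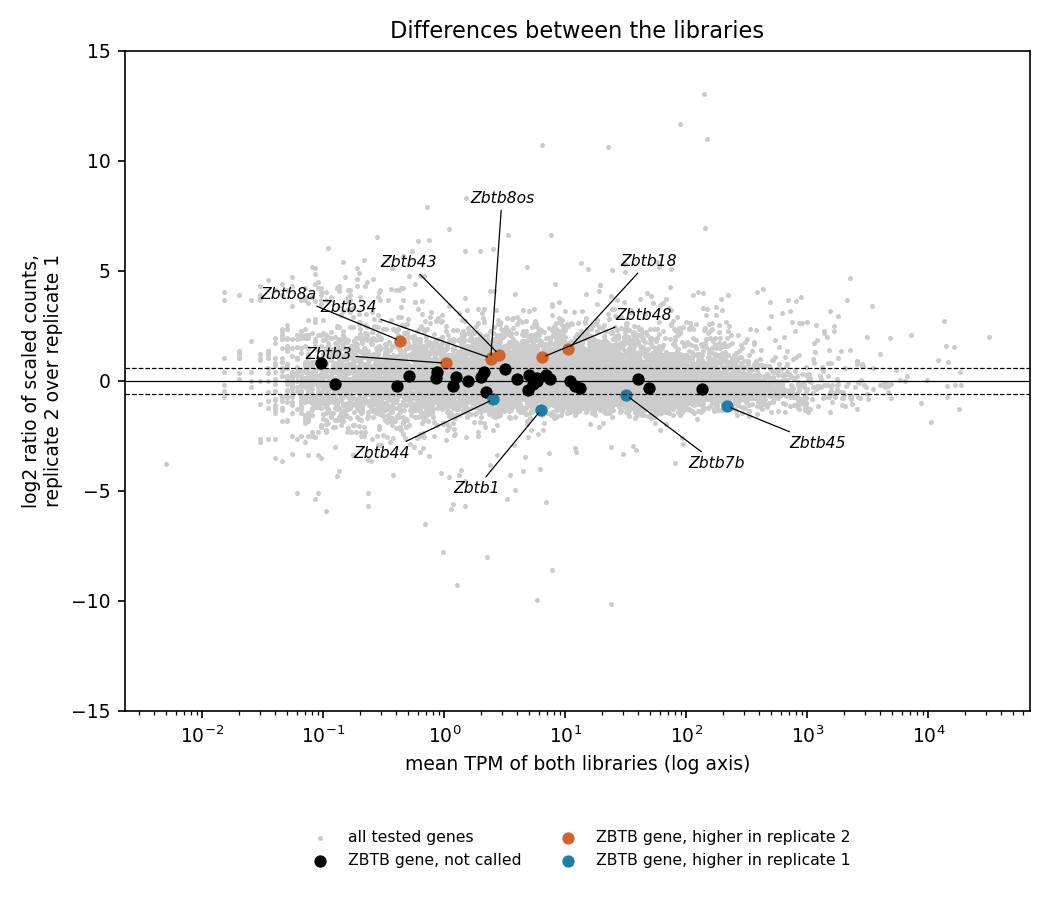
Log2 ratio of scaled counts, replicate 2 over replicate 1, against mean TPM on a log axis for all tested genes (grey) and for the ZBTB genes, called or not. Dashed lines mark the 1.5-fold minimum. The 11 called ZBTB genes lie between -1.32 and 1.82, within the cloud of all genes.

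Overlap with other genes limits some of these values. Of the 41 members 37 had whole counts in both libraries, so no read of theirs was divided with another gene, and 4 (Zbtb2, Zbtb6, Zbtb9 and Zbtb26) had fractional counts. Exon bases are shared with another gene by 16. Zbtb11 shares 489 bases with its antisense RNA Zbtb11os1, which had 16.41 TPM in replicate 1 and 8.71 in replicate 2, above the 5.78 and 3.96 TPM of Zbtb11 itself. It also shares 127 bases on the same strand with Gm28037, listed at 0.00 and 279.24 TPM.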

How the data were processed

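The report rests on 2 libraries of 1 group. Per the labels the reads were paired-end and the build was mm10, and the deposited notes name GENCODE M4. No source used here gives the aligner, the quantifier's version or the use of strand. Per the file headers, whose names are those of RSEM, the values are expected counts (fragments estimated for each gene or transcript, with ambiguous reads divided), TPM (counts over effective length, scaled to a fixed sum) and FPKM (counts over length and depth). The deposited isoform percent gives how much of a gene's TPM each transcript holds, and the deposited posterior SD of the count gives the uncertainty from divided reads.

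Names, types, coordinates and coding sequences came from GENCODE M21 on GRCm38 by identifier, with 42462 of 43346 Ensembl rows matched. Other rows held 2 counts in replicate 1 and 0 in replicate 2 and were left out. Library sizes were scaled with edgeR 4.0.16 (TMM) in R 4.3.3, or with DESeq2 1.42.0 size factors as an alternative. Expected counts were rounded and tested in Python 3.11.15 with SciPy 1.17.1 over genes with at least 10 counts in sum, with 0.5 counts added for folds. With 1 group there was no test between conditions, and floors and p-values cover counting error only. Named genes were the high and role-group members, the genes of the pairs, the called members with the largest folds (at most 5 in each direction, mean TPM of at least 1), members not detected and those beside the thresholds. Zbtb3, Zbtb8a and others were named so that every member is accounted for. The members and lists were chosen with earlier results of these data known. Thresholds, scaling, filters, units, GC content and replicates were varied. A corepressor gene of the list is not reported here.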

Additional observations from a re-analysis of the deposited data

How the results depend on the processing

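Of 258 alternative values, 232 kept their direction and side of the threshold or stayed within the limits of the main value, and 26 did not. The count of expressed members was 14 at 5 TPM. The count of high members was 5 at 20 TPM and also 5 at 50 CPM. The median of mean TPM, 2.83, became 2.54 with protein-coding transcripts only, 2.49 as FPKM and 7.64 as CPM, and with either replicate left out it lay between 3.0 and 3.38. With no fold minimum 23 of 38 tested members were called between libraries, against 73.5% of the 11230 genes tested. Of these members 13 were higher in replicate 2 and 10 in replicate 1. At 2-fold 7 members were called, against 21.8% of all genes tested, and 2 of the 7 were higher in replicate 1. Members whose leading transcript is protein-coding numbered 13 of 14 at 5 TPM and 5 of 5 at 20 TPM. Over the pairs 87 of 91 alternatives held. Those that did not were Zbtb33 over Zbtb38, which reversed to -0.07 as CPM, Zbtb16 over Zbtb32, which was -0.38 without replicate 2 and 2.33 as CPM, and Zbtb2 over Zbtb25, at -0.59 as CPM. Without replicate 1 Zbtb16 over Zbtb32 kept its direction, at 0.77. Over the called members 91 of 99 alternatives held. Some of these, counted also in the 232, were fixed in advance or nearly so. Leaving out the fold minimum cannot lose a call, and the count filters leave the log2 ratios unchanged. Of all calls, 58.7% were higher in replicate 2 with TMM, 47.2% with upper quartile scaling and 49.4% with the fold taken from TPM, so this split depends on the scaling. The median log2 ratio of all tested genes was 0.05 with TMM, 0.12 with total counts and -0.08 with upper quartile. No paired analysis was possible because there is a single group. The exact binomial test compares the replicates, so it has no version without a replicate. Depth limits the members with few counts, such as Zbtb32 with 39 in replicate 1 and 55 in replicate 2. Apart from the units and thresholds, whose construction moves the values, the cause was not tested.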
